A study of Mus musculus with 6 samples.

Results

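The 10 genes described here encode secreted factors that act on blood and lymphatic vessels: the VEGF ligands Vegfa, Vegfb, Vegfc, Figf (now named Vegfd) and Pgf, the angiopoietins Angpt1 and Angpt2, the angiopoietin-like protein Angptl4, and the peptide hormone precursors Apln (apelin) and Adm (adrenomedullin). They were chosen by symbol as angiogenic ligands of the stroma, with earlier results of these data known. All 10 were present among the 24015 symbols of the count table. RNA sequencing of poly(A) transcripts measured them in cancer-associated fibroblasts (CAFs) in primary culture, grown out of mammary tumours of mice on a BalbC background that carry the NeuT transgene, an activated form of the rat Her2/neu oncogene. The cells received nanoparticles with anti-Stat3 siRNA (3 samples) or nanoparticles with control siRNA (3 samples), in both cases at 1 ug/mL for 72 hours. The series asks what lowering STAT3, a transcription factor downstream of IL-6 family cytokines, does to the transcripts of these fibroblasts. The labels give neither the age of the mice nor whether cells of several tumours were pooled, and the 6 samples carry the numbers 1 to 3 in each group.

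VEGF ligands bind receptor tyrosine kinases on endothelial cells. VEGF-A acts mainly through VEGFR2 (gene Kdr), VEGF-B and placental growth factor bind VEGFR1 (Flt1), and VEGF-C and VEGF-D act on VEGFR3 (Flt4) of lymphatic vessels. Angiopoietin 1 activates the receptor TIE2 (Tek) and stabilises vessels, and angiopoietin 2 competes with it. Apelin and adrenomedullin signal through G protein-coupled receptors. In tumours, fibroblasts are a known source of VEGF-A, and Vegfa, Angptl4, Adm and Apln are known to be induced by low oxygen.

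Total counts were between 12998168 and 18683852 per sample, and 3 counts, the most that a count of 0 allows, equal 0.23 CPM in the library of lowest depth (counting error only). Levels are given in CPM (counts per 1000000, after TMM scaling) and changes on the log2 scale, with anti-Stat3 siRNA on top. Because same-numbered samples shared much of their deviation from the group mean, the samples of a number are treated as a pair, and blocked DESeq2 or blocked edgeR means a fit with the pair as a term. Stat3, the target of the siRNA, had 34.7, 81.9 and 78.9 CPM in anti-Stat3 samples 1 to 3, against 220, 359 and 405 CPM in control samples 1 to 3. All 15 fibroblast markers were tested, with summed levels of 52640 to 86700 CPM in the anti-Stat3 samples and 45580 to 114500 CPM in control samples. Macrophage markers differed between pairs, with a sum of 47.8, 1875 and 3042 CPM in anti-Stat3 samples 1 to 3 and of 51.8, 1884 and 2625 CPM in control samples 1 to 3. Epithelial markers summed to 413, 1845 and 128 CPM in the anti-Stat3 samples and to 488, 2189 and 138 CPM in the control samples. Both sums differed far more between pairs than between the groups, and their part in the results was not tested.

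Angptl4, Vegfa and Apln were lower after anti-Stat3 siRNA in all 3 pairs, and they fell in blocked DESeq2. Angpt1 and Angpt2 were higher in all 3 pairs without passing, and Vegfb, Vegfc and Figf had no common direction. The 10 factors were chosen with earlier results of these data known, so their counts beside those of all genes are a description only. Of the 10 factors, 5 were lower in all pairs, 2 were higher in all pairs and 3 were mixed. Among all 13284 genes tested, 16.4% were lower in all pairs and 17.3% were higher, 33.7% in all. Blocked DESeq2 called 3 of the 10 factors lower and 0 higher at an adjusted p under 0.05, where it called 0.783% of all tested genes lower and 0.873% higher (1.66% in either direction). Its unadjusted p was under 0.05 for 6 of the 10 factors and for 8.05% of all genes. In edgeR's quasi-likelihood test with the group alone, 0 of the 10 passed, as did 0% of all tested genes. Apln was the 1 factor with an unadjusted p under 0.05 in that test, where 1.77% of all tested genes had one. DESeq2 with the group alone also called 0 of the 10. Blocked edgeR called 0 of the 10 factors in either direction, beside 0.0376% of all genes lower and 0.0226% higher (0.0602% together), with the same 6 factors at an unadjusted p under 0.05, where 10.8% of all genes had one. These 6 were Apln, Vegfa, Pgf, Angpt1, Angpt2 and Angptl4. The median log2 change over the 10 factors was -0.12 with the group alone, beside -0.0028 over all tested genes. None of the 10 had groups that did not overlap, which held in the lower direction for 2.23% and in the higher direction for 2.45% of all genes.

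**Figure D1:**
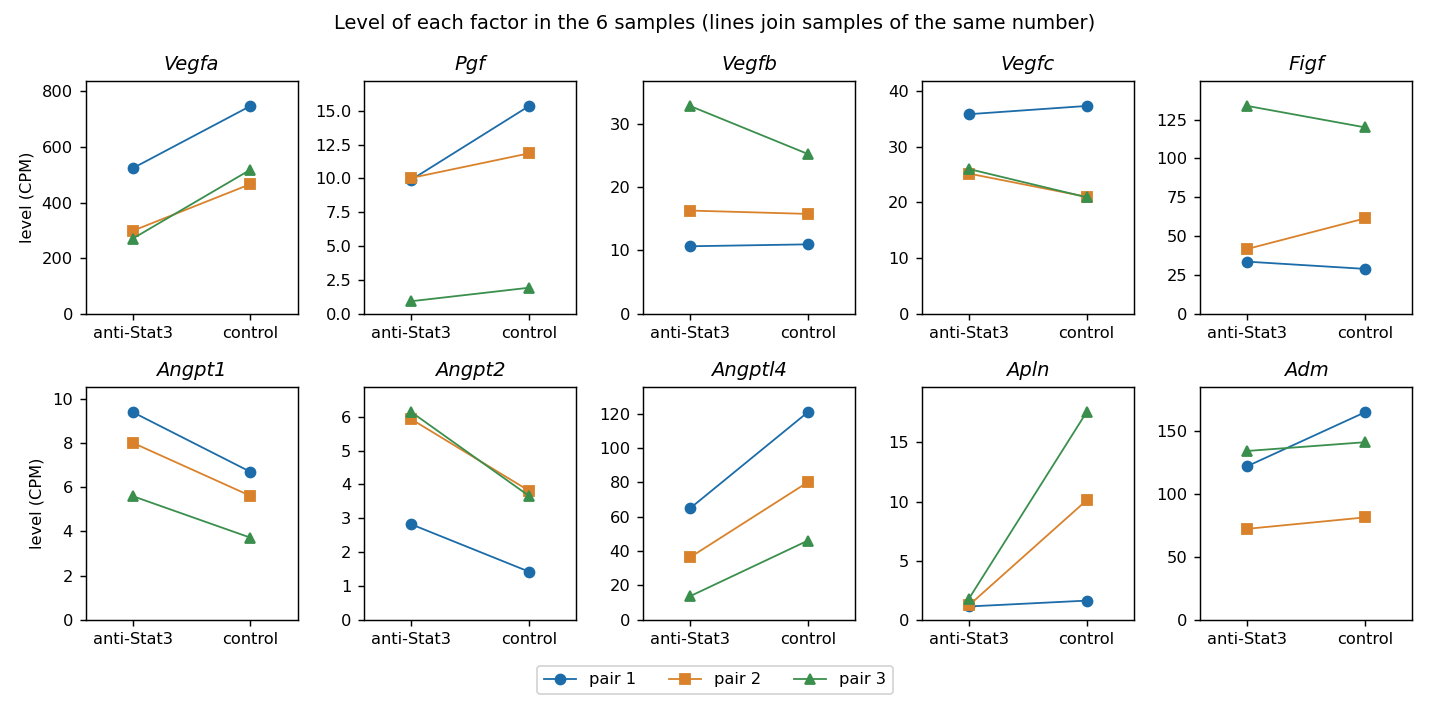
Level (CPM, linear axes from 0) of each factor in the anti-Stat3 siRNA samples (left) and the control siRNA samples (right), with a line joining the samples of the same number. Every line of Vegfa, Angptl4 and Apln is lower at its anti-Stat3 end and every line of Angpt1 and Angpt2 is higher there, while the groups overlap for all 10 factors.

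Vegfa, the main driver of blood vessel growth, had the highest mean level per length of the 10 transcripts. Its level was 524, 298 and 270 CPM in anti-Stat3 samples 1 to 3, against 748, 467 and 519 CPM in control samples 1 to 3. Each anti-Stat3 sample was below the control of its own number, but anti-Stat3 sample 1 was above control samples 2 and 3, so the groups overlapped. The means were 364 ± 139 CPM with anti-Stat3 siRNA and 578 ± 150 CPM with control siRNA (SD, n = 3 each). The pair changes were -0.51, -0.65 and -0.94, which on average left 61.6% of the control level. In blocked DESeq2 Vegfa fell by 0.70 on the log2 scale (SE 0.14, adjusted p = 3.6e-04). In edgeR the change was -0.70 ± 0.13 with that block (adjusted p = 0.16) and -0.67 ± 0.33 with the group alone (SE, adjusted p = 1.00). The DESeq2 call was lost without pair 2 (-0.73, adjusted p = 0.222) or pair 3 (-0.57, 0.389), and without pair 1 Vegfa also passed in blocked edgeR (adjusted p = 0.0097). These are bulk measurements, in which fewer cells of a type and less RNA per cell cannot be told apart.

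The other ligand genes of the family passed neither in blocked DESeq2 nor in either edgeR fit. Pgf, placental growth factor, had 9.90, 10.0 and 0.92 CPM in the anti-Stat3 samples and 15.4, 11.9 and 1.92 CPM in control samples. It was low in both samples of pair 3, with 12 and 32 counts, and lower with anti-Stat3 siRNA in each pair. Its blocked DESeq2 change was -0.56 ± 0.28 (SE, adjusted p = 0.59). In pair 2 the ratio of anti-Stat3 to control, 0.85, had a 95% counting interval that held 1 (0.68 to 1.05, exact binomial).

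Vegfb, a VEGFR1 ligand linked to lipid handling, had 10.7, 16.3 and 32.8 CPM in the anti-Stat3 samples and 10.96, 15.8 and 25.2 CPM in control samples. Vegfc, a lymphatic growth factor, had 35.9, 25.2 and 26.01 CPM in the anti-Stat3 samples and 37.3, 21.0 and 20.9 CPM in control samples. The groups overlapped for both genes, Vegfb was highest in both samples of pair 3, and Vegfc was highest in both samples of pair 1. Figf, the gene of the second lymphatic ligand VEGF-D, had 33.5, 41.7 and 134 CPM in the anti-Stat3 samples and 28.8, 61.4 and 120 CPM in control samples. Both samples of pair 3 were the highest, and the pair changes of 0.22, -0.56 and 0.16 pointed both ways. In blocked DESeq2 the changes of Vegfb, Vegfc and Figf were 0.14 ± 0.20, 0.17 ± 0.18 and -0.06 ± 0.19 (SE).

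Levels of different genes can be compared per length of transcript. Divided by the merged exon length, Vegfa had 122, 69.6 and 63.0 CPM per kb in anti-Stat3 samples 1 to 3 and 174, 109 and 121 CPM per kb in control samples 1 to 3. Adm followed with 75.5, 44.7 and 83.0 CPM per kb in anti-Stat3 samples and 102, 50.3 and 87.3 CPM per kb in control samples. The neighbours Vegfa and Adm overlapped, and Adm was above Vegfa in anti-Stat3 sample 3. Figf, Angptl4, Vegfb and Vegfc came next, with mean levels over the 6 samples of 29.0, 17.0, 11.6 and 11.3 CPM per kb and values that overlapped between neighbours. Pgf, Apln, Angpt1 and Angpt2 were the lowest, with means of 2.87, 1.77, 1.25 and 1.07 CPM per kb, and neighbours among them overlapped, while every sample of Vegfc was above every sample of Pgf. As a share of the 5 VEGF ligands per length, Vegfa made up 76.0%, 62.8% and 42.0% in anti-Stat3 samples, against 81.6%, 69.4% and 61.8% in control samples. This share does not depend on the scaling between libraries, and it was lower with anti-Stat3 siRNA within each pair.

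**Figure D2:**
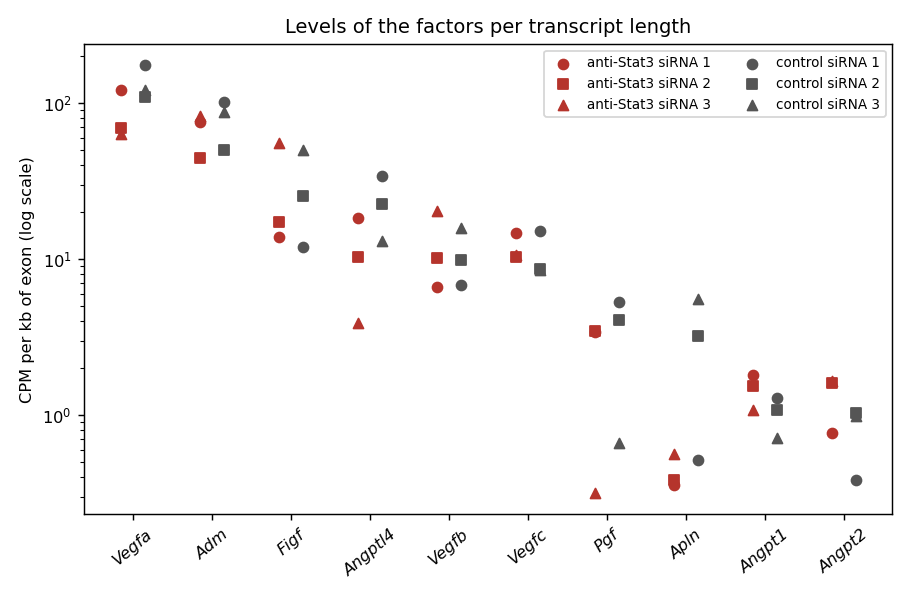
Level per length (CPM per kb of merged exon, log axis) of the 10 factors in each anti-Stat3 siRNA sample (left of each position) and control siRNA sample (right), ordered by the mean over all samples, from 109.9 CPM per kb for Vegfa to 1.07 for Angpt2. Neighbouring genes overlap in level except Vegfc and Pgf, and Apln spreads widest among the control samples, from 0.52 to 5.58 CPM per kb.

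Angptl4, a secreted inhibitor of lipoprotein lipase that also acts on vessel permeability, had the smallest adjusted p of the 10 factors in blocked DESeq2, where it fell. Its level was 64.9, 36.4 and 13.7 CPM in anti-Stat3 samples 1 to 3, against 121, 80.1 and 46.1 CPM in control samples 1 to 3. Both groups had their highest value in sample 1 and their lowest in sample 3, and anti-Stat3 sample 1 was above control sample 3. Pair changes of -0.90, -1.14 and -1.74 left 41.8% of the control level on average. Angptl4 fell by 1.24 on the log2 scale in blocked DESeq2 (SE 0.19, adjusted p = 2.0e-07), and it still passed when any 1 pair was omitted (the highest adjusted p was 0.0049). In edgeR the adjusted p was 0.14 with the block (-1.24 ± 0.17) and 1.00 with the group alone (-1.10 ± 0.60, SE).

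The angiopoietins were higher after anti-Stat3 siRNA in each pair, at low levels. Angpt1, the TIE2 agonist, had 9.40, 8.01 and 5.60 CPM in the anti-Stat3 samples, against 6.70, 5.61 and 3.72 CPM in control samples. Its pair changes of 0.48, 0.51 and 0.58 had an SD of 0.05, the smallest among the 10 factors. The 95% counting intervals of its ratios in pairs 1 to 3 were 1.08 to 1.83, 1.09 to 1.87 and 1.06 to 2.15. Such counts cannot resolve so small an SD. Angpt2, which competes with it at TIE2, had 2.82, 5.93 and 6.14 CPM in the anti-Stat3 samples, against 1.42, 3.81 and 3.66 CPM in control samples. In blocked DESeq2 the change was 0.53 ± 0.26 for Angpt1 and 0.78 ± 0.33 for Angpt2 (SE), and neither passed (adjusted p = 0.58 and 0.35). Blocked edgeR gave an adjusted p of 0.26 for Angpt1 and 0.20 for Angpt2. The ratio of Angpt2 to Angpt1 per length was 0.42, 1.04 and 1.55 in anti-Stat3 samples and 0.30, 0.96 and 1.39 in control samples, so that it differed more between pairs than within them. Endothelial cells are a known source of Angpt2. Of 7 tested endothelial markers, 5 were higher in all 3 pairs and 2 lower in all, where 17.3% and 16.4% of all genes were. The part of endothelial cells in these values was not tested.

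Apln, whose peptide activates the apelin receptor of endothelial cells, had the largest fitted change of the 10 factors, and that change rested on pairs 2 and 3. Its level was 1.13, 1.21 and 1.76 CPM in anti-Stat3 samples 1 to 3 (18, 18 and 23 counts), against 1.62, 10.1 and 17.6 CPM in control samples 1 to 3 (24, 191 and 293 counts). The anti-Stat3 samples lay close together at a low level, and control sample 1 lay among them while control samples 2 and 3 were far above. In pair 1 the ratio of anti-Stat3 to control was 0.70, with a 95% counting interval of 0.36 to 1.34 (exact binomial), so a difference was not detectable at this depth. The ratios were 0.12 (0.07 to 0.19) in pair 2 and 0.10 (0.06 to 0.15) in pair 3. In blocked DESeq2 Apln fell by 2.40 on the log2 scale (SE 0.49, adjusted p = 3.1e-04). The adjusted p in edgeR was 0.16 with the block (-2.57 ± 0.46) and 1.00 with the group alone (-2.83 ± 0.82, SE, unadjusted p = 0.012). Without pair 1 Apln passed in both blocked tests, at -3.19 (adjusted p = 1.8e-06 in edgeR and 1.2e-11 in DESeq2), while without pair 2 or pair 3 it passed in neither, at -1.999 and -1.83 in DESeq2 (adjusted p = 0.563 and 1.00). Pair 1 is also the pair with few macrophage transcripts, with 11.7 CPM of Lyz2 in its anti-Stat3 sample and 10.96 CPM in its control sample, and the part of this difference in the result was not tested.

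Adm, the precursor of the vasodilator adrenomedullin, had 122, 72.4 and 134 CPM in the anti-Stat3 samples, against 165, 81.5 and 141 CPM in control samples. Its pair changes of -0.43, -0.17 and -0.07 were all negative, the groups overlapped, and it did not pass (blocked DESeq2 -0.23 ± 0.15, SE, adjusted p = 0.87). In pair 3 its ratio of 0.95 had a counting interval of 0.89 to 1.01.

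**Figure D3:**
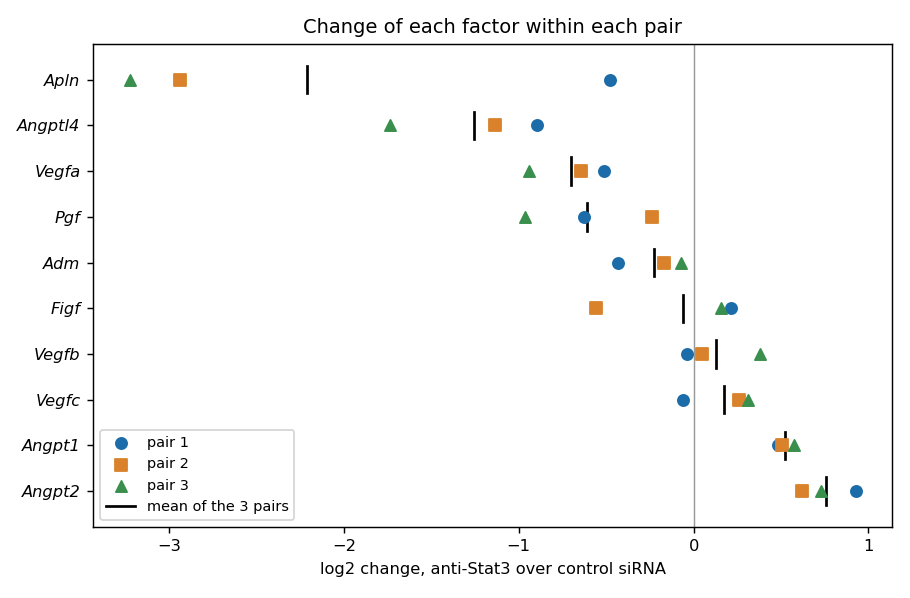
Change of each factor within each pair (log2 of anti-Stat3 over control siRNA, horizontal axis), with the mean of the 3 pairs as a bar and the factors ordered by that mean. The 3 marks of Angptl4, Vegfa, Pgf, Adm and Apln lie left of 0 and those of Angpt1 and Angpt2 right of it, and the Apln mark of pair 1 (-0.48) stands apart from those of pairs 2 and 3 (-2.93 and -3.23).

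**Figure D4:**
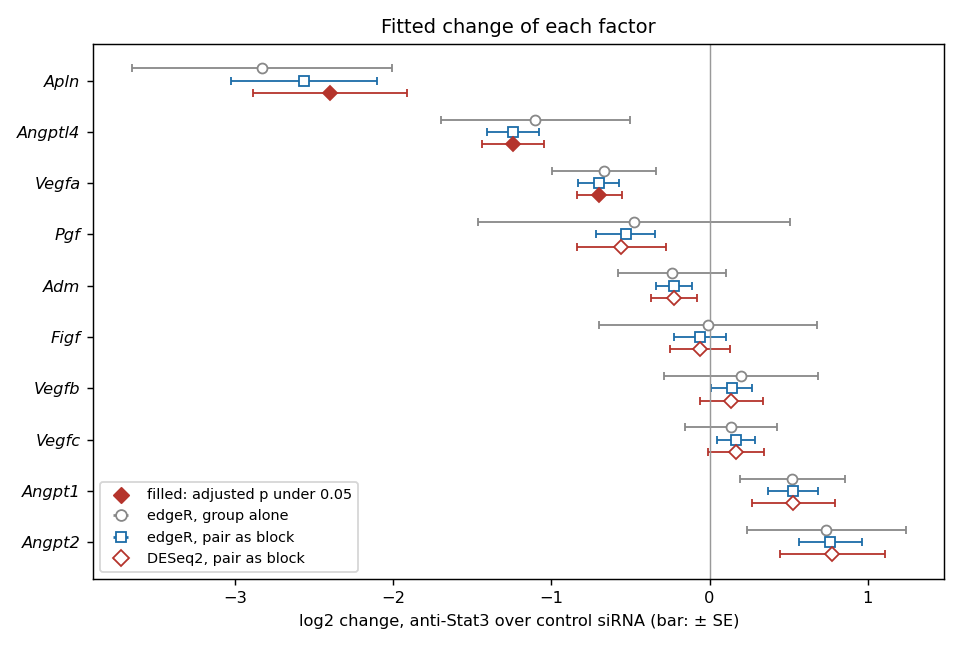
Fitted log2 change of anti-Stat3 over control siRNA (± SE) of each factor in edgeR with the group alone, blocked edgeR and blocked DESeq2, with filled marks where the adjusted p over all tested genes was under 0.05. Apln (-2.40), Angptl4 (-1.24) and Vegfa (-0.70) are filled in DESeq2 alone, and the SE bars of edgeR with the group alone are the widest for each factor.

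The profiles over the 6 samples most like those of Apln and Vegfa were found by the root mean square difference of log2 CPM after centring each gene on its mean. For Apln the nearest genes were Socs3, Ankrd55, Rtn4rl2, Rasl11a and Kng2, at 0.47, 0.51, 0.53, 0.54 and 0.54, where the median tested gene was at 1.54. Socs3, the feedback inhibitor of STAT3 signalling, was at 10.9, 18.6 and 38.1 CPM in the anti-Stat3 samples, against 25.2, 85.9 and 156 CPM in control samples. For Vegfa the nearest were Lmtk3, Steap2, Adora2b, Rasl12 and Gpr3, at 0.10 to 0.15, where the median tested gene was at 0.57. Lmtk3 had only 7 to 21 counts per sample and Gpr3 3 to 15, so counting error limits their likeness to Vegfa. Adora2b, an adenosine receptor, had pair changes of -0.54, -0.48 and -0.79, beside the -0.51, -0.65 and -0.94 of Vegfa.

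Promoter sequences were at hand for 7 of the 10 genes (RefSeq, GRCm38.p6, not the build of the counts). RefSeq gives 9 windows of 250 bases before a transcript start for these 7 genes, with 2 each for Vegfa and Pgf. One window each is shown for Apln and Vegfa, which both fell in blocked DESeq2, and for Adm, which did not pass. All 9 were searched on both strands for ACGTG and GCGTG, the core letters to which hypoxia-inducible factors bind, and for TTCNNNGAA, the palindrome recognised by STAT3. These motifs do not overlap one another within the windows shown, and capitals mark each match. The windows lie at chrX:48034854-48035103 (minus strand) for Apln, chr17:46032378-46032627 (minus strand) for the upstream start of Vegfa and chr7:110627407-110627656 (plus strand) for Adm.
Apln: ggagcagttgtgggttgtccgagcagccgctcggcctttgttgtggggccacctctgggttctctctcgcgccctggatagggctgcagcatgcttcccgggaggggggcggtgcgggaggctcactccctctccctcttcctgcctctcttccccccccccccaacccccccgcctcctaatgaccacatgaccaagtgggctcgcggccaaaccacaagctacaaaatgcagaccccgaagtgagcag
Vegfa: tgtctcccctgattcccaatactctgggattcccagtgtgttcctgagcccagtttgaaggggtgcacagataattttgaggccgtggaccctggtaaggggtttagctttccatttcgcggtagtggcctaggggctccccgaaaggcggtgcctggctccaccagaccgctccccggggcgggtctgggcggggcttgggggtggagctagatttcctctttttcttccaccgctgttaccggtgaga
Adm: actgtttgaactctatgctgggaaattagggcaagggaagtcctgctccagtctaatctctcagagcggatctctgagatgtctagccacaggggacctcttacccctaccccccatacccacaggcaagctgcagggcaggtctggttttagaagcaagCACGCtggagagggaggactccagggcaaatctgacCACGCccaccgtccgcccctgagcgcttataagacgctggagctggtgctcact
Adm holds GCGTG on its minus strand (read as CACGC) at bases -90 to -86 and -54 to -50 from the start. The Vegfa window shown holds neither ACGTG nor GCGTG. The window of its other start, chr17:46025164-46025413 (minus strand), holds GCGTG at -218 to -214 and ACGTG on its minus strand at -211 to -207. A stretch just downstream of this other start was in no GENCODE M21 transcript of Vegfa, so the start was not matched to a transcript. The same held for the start of Vegfc. By its coordinates the other Vegfa window also lies downstream of the upstream start, so its 2 matches are not shown to lie in a promoter. Vegfb has 2 matches of GCGTG and 1 of the Pgf windows has 1. With that Vegfa window counted, 4 of the 9 windows hold either motif, and the Apln window holds neither. Among 32851 promoter windows of this length, 38.6% hold ACGTG or GCGTG. TTCNNNGAA is in none of the 9 windows and in 7.02% of all. A missing match says only that the letters are not in these 250 bases.

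Most genes listed as induced by low oxygen, other than the 10 factors, were lower in all 3 pairs. The list was chosen with earlier results of these data known, so its counts are a description only. All 32 of its genes that were in the table were tested. Of these, 28 were lower in all 3 pairs and 0 higher in all, where 16.4% and 17.3% of all tested genes were. Their median log2 change was -0.48 with the group alone, beside -0.0028 over all tested genes, with pair medians of -0.35, -0.60 and -0.66. In blocked DESeq2 10 of them fell and 0 rose, where 0.783% of all genes fell. In edgeR 0 passed with or without the block. The 10 were Stc1, Bnip3, Ndrg1, Pdk1, Hif1a, Ak4, Pfkfb3, Ddit4, Slc2a1 and Mxi1. Stc1, the hormone stanniocalcin 1, changed by -1.70 ± 0.28 and Pfkfb3, a regulator of glycolysis, by -0.78 ± 0.16 (SE). Hif1a, which encodes the oxygen-regulated part of HIF-1, is a regulator of such genes more than one of them, and changed by -0.90 ± 0.20 (SE). Ak4, a mitochondrial adenylate kinase, changed by -0.89 ± 0.18 (SE). Pgk1, a glycolytic kinase, had -0.51 ± 0.16 (SE) and did not pass (adjusted p = 0.092). Without pair 2 the DESeq2 count was 1, beside 12 of all 13340 genes lower, and without pair 3 it was 3, beside 13 of 13576. Without pair 1 it was 11, beside 158 of 13529, and blocked edgeR called 12, beside 295 of 13529. Angptl4 is also known as a target of PPAR transcription factors. Of 14 tested PPAR targets other than Angptl4, 0 passed in blocked DESeq2 or in edgeR, with a median of 0.07, 3 lower in all pairs and 3 higher. Over all genes, blocked DESeq2 called 1.66%, and 16.4% were lower and 17.3% higher in all pairs. The counts of so short a list therefore say little, and the part of PPAR factors in Angptl4 was not tested. Cpt1a, which carries fatty acids into mitochondria, had pair changes of -0.20, -0.03 and -0.06. Fabp4, a fatty acid carrier, was at 11.5, 9.03 and 11.4 CPM in the anti-Stat3 samples, against 13.1, 13.1 and 14.3 CPM in control samples, groups that did not overlap, and did not pass (blocked DESeq2 adjusted p = 0.85). Acaa2, an enzyme of fatty acid oxidation, had 0.24 ± 0.18 and Cyp4b1, a cytochrome P450, -1.22 ± 0.55 (SE), and neither passed.

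**Figure D5:**
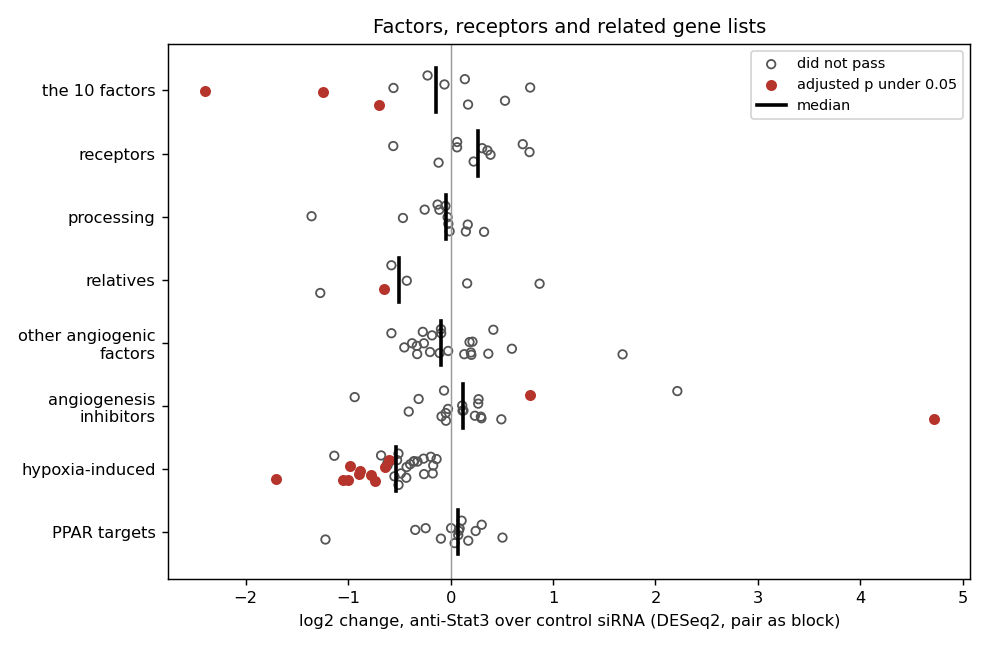
Log2 change of anti-Stat3 over control siRNA in blocked DESeq2 (horizontal axis) for every tested gene of the 10 factors and of 7 related lists, with filled marks at an adjusted p under 0.05 and a bar at the median of the list. Hypoxia-induced genes lie left of 0 with 10 filled marks. No receptor, processing or PPAR target gene is filled, where 1.66% of all tested genes passed.

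Among receptor and co-receptor genes 13 were counted and 10 tested, with a median of 0.20. Of the 10, 0 were called in either direction in blocked DESeq2 or in edgeR, where blocked DESeq2 called 1.66% of all genes. Without pair 1, blocked edgeR called 1 lower and 1 higher, and blocked DESeq2 1 lower. Over all 13529 genes of those fits, blocked edgeR called 295 lower and 408 higher, and blocked DESeq2 158 and 274. Nrp1, a VEGF co-receptor, had 139, 218 and 141 CPM in the anti-Stat3 samples and 157, 204 and 170 CPM in control samples. Kdr, the main VEGF-A receptor, had 2.44, 30.3 and 11.2 CPM in the anti-Stat3 samples and 1.56, 21.4 and 10.4 CPM in control samples, so that it differed by pair. Flt1, the receptor of VEGF-B and placental growth factor, had a change of 0.22 ± 0.23 in blocked DESeq2 (SE). Ackr3, a scavenger receptor of adrenomedullin, had -0.56 ± 0.24 and Ramp1, a receptor accessory protein, 0.36 ± 0.37 (SE), without passing. Tek, the angiopoietin receptor, was between 1.01 and 4.22 CPM. Aplnr, the apelin receptor, did not pass the filter on low counts, with at most 0.32 CPM. Much of the summed level of the endothelial markers was Eng, which fibroblasts also express, at 104 to 226 CPM. All 15 were in the table and 7 were tested. The sum of all 15 was 169.6, 179 and 276 CPM in anti-Stat3 samples 1 to 3, against 152, 136 and 208 CPM in control samples 1 to 3, so it was higher with anti-Stat3 siRNA in each pair. Of the 7 tested, Kdr, Tek, Vwf, Eng and Cd34 were higher in all 3 pairs and Cdh5 and Esam lower in all, where 17.3% and 16.4% of all genes were. Vwf reached 10.5 CPM and Esam 4.53 CPM. Cdh5 was at most at 1.06 CPM, and the 8 not tested, Pecam1 and Cldn5 among them, at most at 0.94 CPM. Cd34, which some fibroblasts also express, rose in blocked DESeq2 (1.04 ± 0.31, SE, adjusted p = 0.044), but not without pair 2 or pair 3.

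Genes that process these ligands, and genes related to them, were counted beside all tested genes. Of 12 tested processing genes, 0 passed in blocked DESeq2 or in edgeR, with a median of -0.08. Blocked DESeq2 called 1.66% of all genes, so a count of 0 in so short a list says little. Without pair 1, 1 of the 12 processing genes was called lower in each blocked test. For this and the later counts without pair 1, blocked edgeR called 295 of all 13529 genes lower and 408 higher. Blocked DESeq2 called 158 and 274 there. Pam, which amidates adrenomedullin, had pair changes of 0.19, 0.07 and 0.24. Plat, a plasminogen activator, and Furin, a proprotein convertase, had -0.25 ± 0.16 and -0.11 ± 0.13 in blocked DESeq2 (SE). Of 6 tested relatives, 1 fell in blocked DESeq2 and 0 rose, where 0.783% of all genes fell, and edgeR called 0 with or without the block. Their median was -0.46 with the group alone. Without pair 1, blocked edgeR called 3 lower and blocked DESeq2 2. The 1 was Angptl2, a secreted angiopoietin-like protein linked to inflammation, with 745, 202 and 173 CPM in the anti-Stat3 samples and 860, 366 and 322 CPM in control samples (-0.65 ± 0.17, SE, adjusted p = 0.016), but not without pair 2 or pair 3. Angptl7, an angiopoietin-like protein, was at 0.31 to 1.08 CPM in the anti-Stat3 samples and 0.27 to 3.86 CPM in control samples, and Adm2, a peptide related to adrenomedullin, had -0.43 ± 0.23 (SE), and neither passed. Angpt4, another angiopoietin, had 13.3, 16.1 and 23.6 CPM in the anti-Stat3 samples and 12.8, 29.3 and 43.7 CPM in control samples and did not pass (adjusted p = 0.28). Among 22 other secreted angiogenic factors, with a median of -0.08, 0 passed in blocked DESeq2 or in edgeR, where blocked DESeq2 called 1.66% of all genes. Without pair 1, blocked edgeR called 2 lower and 2 higher, and blocked DESeq2 called 1 lower and 1 higher. Hgf, a growth factor for epithelium and endothelium, had -0.45 ± 0.17 (SE, adjusted p = 0.19) in blocked DESeq2, where Pdgfd, a PDGF receptor ligand, had 0.37 ± 0.19. Among 20 tested genes listed as secreted inhibitors of angiogenesis, blocked DESeq2 called 2 higher and 0 lower, where it called 0.873% of all genes higher, and edgeR called 0 with or without the block. The median was 0.13 with the group alone. These were Sparcl1, a matricellular protein (0.77, adjusted p = 0.016), and the chemokine Cxcl10 (4.72, adjusted p = 0.049), known to be induced by interferon. Cxcl10 had 76.9, 153 and 49.6 CPM in the anti-Stat3 samples, against 57.2, 1.27 and 1.08 CPM in control samples, so that pair 1 differed least. Without pair 1, 4 of the 20 were called higher in both blocked tests, where 408 (edgeR) and 274 (DESeq2) of all 13529 genes were. Without control sample 1, edgeR with the group alone called 2 higher, beside 40 of all 13624 genes. Without pair 2 or pair 3, 0 of the 20 passed. Sema3a, Isg15 and Timp3 had 0.50, 2.21 and 0.24 and did not pass. The list is mixed, with Isg15 and Spp1 on it, so its counts are not those of inhibitors alone. Thbs1, the anti-angiogenic matrix protein thrombospondin 1, had pair changes of 0.09, -0.34 and -0.68.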

How the data were processed

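Poly(A) RNA libraries of 3 anti-Stat3 siRNA and 3 control siRNA cultures were prepared by TruSeq, per the labels' protocols. TopHat2 2.0.10, HTSeq and mm9 are named in the submitters' processing notes. The authors deposited raw counts per gene symbol (24015 symbols), not normalised. No source used here says whether counting used strand, so reads of overlapping genes cannot be told apart. The columns write "sh" where the titles write "si", and were matched by target and number. 0 columns were left unused.

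Counts were tested in R 4.3.3 with edgeR 4.0.16 (quasi-likelihood F test, TMM, filterByExpr at 10 counts, 15 in total, 13284 genes, group alone, Benjamini-Hochberg threshold 0.05), with SE as the change divided by the root of F. DESeq2 1.42.0 and fits with the replicate block were alternatives. Blocked DESeq2, used for the calls named, was an alternative and not the main test. Pair changes are differences of log2 CPM with a prior count of 2. The fits were tested on simulated data. Across genes, the deviation of a sample from its group mean had a correlation of 0.834, 0.818 and 0.831 with that of the sample sharing its number in the titles, and of -0.163 or below with others. Genes are not independent replicates. The numbers were taken to pair the samples. What a number shares is not given, and the labels do not say that cultures were separate. The p-values with the group alone therefore measure only the spread between these samples. Those with the block measure the spread left after the differences between these pairs are removed. Samples of 1 group differed beyond sampling noise (chi-square per degree of freedom at least 71.5). With 3 against 3 an exact permutation p cannot go below 0.1, so none was used.

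Members and lists were chosen with earlier results of these data known. Named beside the 10 factors were Stat3, the 4 genes of a list that edgeR without the block ranked first by p (not for marker lists), those called with the block, and the 5 nearest profiles of Apln and Vegfa. Lyz2, Pecam1, Cldn5, Vwf, Esam, Aplnr, Nrp1, Kdr and Thbs1 were named after their values were seen. Among cell type markers, blocked DESeq2 also called Mcam (pericyte list) and Cd74 (macrophage list) higher and Pdpn (lymphatic list) and Lcn2 (epithelial list) lower. It called 0 genes of the fibroblast and 0 of the adipocyte list. Pdpn was at 149 to 466 CPM, while the other lymphatic markers reached at most 12.4 CPM (Flt4), and Lcn2 was at 16.4 to 1070 CPM. The list names do not show which cells these transcripts came from. Lengths are merged exons of GENCODE M21 (GRCm38), used for length only.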

Additional observations from a re-analysis of the deposited data

How the results depend on the processing

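The 10 factors were refitted under 19 alternatives each, of which 2, the scalings by library totals, were chosen after seeing the data. Apln, Vegfa, Angptl4, Adm, Angpt1 and Angpt2 kept their direction under all 19. Leaving out 1 sample in edgeR with the group alone, which breaks a pair, gave changes of -3.34 to -2.10 for Apln, -1.03 to -0.44 for Vegfa, -1.72 to -0.70 for Angptl4, 0.32 to 0.71 for Angpt1, 0.40 to 1.02 for Angpt2, -0.48 to -0.02 for Adm, -0.37 to 0.58 for Vegfb, -0.05 to 0.46 for Vegfc, -0.90 to 0.63 for Figf and -0.96 to 0.04 for Pgf. Reversals, none past the threshold, were Vegfb at -0.05 without control sample 1 and -0.37 without anti-Stat3 sample 3, and Vegfc at -0.0034 without control sample 2, -0.0041 without control sample 3 and -0.047 without anti-Stat3 sample 1. Others were Figf at 0.032 with library totals as scaling, 0.63 without control sample 3, 0.33 without anti-Stat3 sample 1, 0.245 without anti-Stat3 sample 2 and 0.18 without pair 2 in both blocked tests, and Pgf at 0.01 without control sample 1 and 0.039 without anti-Stat3 sample 3. The cause was not tested.

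With the replicate block, 3 factors were called lower in DESeq2 and 0 in edgeR, against 0 with the group alone. With 1 pair left out, 0 to 3 were called lower in blocked edgeR and 1 to 3 in blocked DESeq2, and 0 were called higher in any fit. Over all genes, blocked edgeR called 5 lower and 3 higher (6 and 3 with library totals as scaling), blocked DESeq2 104 and 116, and DESeq2 with the group alone 1 and 16. With 1 pair left out, the paired tests called 0 to 295 genes lower and 0 to 408 higher in edgeR, and in DESeq2 158 lower and 274 higher without pair 1, 12 and 2 without pair 2, and 13 and 7 without pair 3. Without 1 sample, edgeR with the group alone called 0 lower and 0 to 40 higher. Low counts limit Apln in the anti-Stat3 samples, Pgf in pair 3 and Angpt2 in sample 1 of each group.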

Other observations

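Outside the 10 factors, Pcsk5 and Ptn had smaller changes in pair 1 than in pairs 2 and 3. How many of all tested genes did so was not counted. Pcsk5, a proprotein convertase that activates secreted precursors, had 48.2, 48.0 and 34.6 CPM in anti-Stat3 samples 1 to 3, against 54.8, 157 and 153 CPM in control samples 1 to 3. Control sample 1 lay near the anti-Stat3 samples, as it did for Apln. For Pcsk5 it was above them, so the groups did not overlap, as for 2.23% of all genes in the lower direction. Pcsk5 did not pass in blocked DESeq2 (-1.36 ± 0.56, SE, adjusted p = 0.30). Ptn, the heparin-binding growth factor pleiotrophin, was at 4.70, 11.7 and 97.6 CPM in anti-Stat3 samples and 5.41, 1.53 and 21.6 CPM in control samples, with pair changes of -0.20, 2.83 and 2.17, and did not pass (adjusted p = 0.56). Whether the change in pair 1 differs from that in pairs 2 and 3 was not tested for any of these genes. Figf made up 8.64%, 15.6% and 37.0% of the VEGF ligands per length in anti-Stat3 samples 1 to 3, and 5.60%, 16.2% and 25.4% in control samples 1 to 3, the highest share in both groups being that of pair 3.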
